A study of Mus musculus with 24 samples.

Results

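Poly-A RNA of the hypothalamus was sequenced from 3 male C57BL/6J mice aged 15 months and 3 aged 2 months, and the levels of genes were compared between the ages. These 6 libraries, chosen by the tissue, assay and age in their labels, are 6 of 24 in a series that also holds hippocampal mRNA and small RNA of both tissues. Each mouse gave 1 hypothalamic library, the mice are numbered 1 to 3 when young and 4 to 6 when aged, and values per mouse are given in that order. No treatment, transgene or mutation is stated for either age, and all mice lived under a light and dark cycle of equal phases. The mice came from 2 suppliers with no statement of which age came from which, so age and source cannot be told apart. The time of day at which tissue was taken is not stated. The libraries held 25943252, 25938741 and 25043844 expected counts in young mice 1 to 3 and 27157819, 26063817 and 25943205 in aged mice 4 to 6. They listed 18018 genes in at least 1 library, of which 15821 were listed in all 6 and 14955 had enough counts to be tested.

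The hypothalamus joins the nervous and endocrine systems. Its nuclei release peptides that set hunger, water balance, body temperature, reproduction, growth and the daily rhythm, and its median eminence carries releasing hormones to the pituitary. Tanycytes, glia that line the floor of the third ventricle, and fenestrated vessels give its neurons access to signals from blood. Microglia, the macrophages of the brain, and oligodendrocytes, which wrap axons in myelin, are found throughout.

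The labelled tissue was checked against its markers on the scale of FPKM, read pairs scaled for transcript length and library depth, which allows levels to be compared between genes. Hcrt, the orexin precursor of the lateral hypothalamus, averaged 96.6 FPKM here and 0.69 FPKM in the 6 hippocampal libraries of the series. Pmch, which encodes melanin-concentrating hormone, averaged 180 against 2.61 FPKM, and Oxt, the oxytocin gene, 127 against 1.96 FPKM. Slc17a7, a glutamate transporter of cortical and hippocampal neurons, averaged 43.3 FPKM here and 455 FPKM in the hippocampus. Among genes of the sex chromosomes, Ddx3y of the Y chromosome averaged 16.1 FPKM, and no library listed a read of Xist.

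Markers of tissue next to the hypothalamus varied between libraries. In CPM, counts scaled to a common library depth, Ttr, the thyroxine carrier made by choroid plexus, stood at 573, 23 and 481 in the young and 253, 805 and 18.2 CPM in the aged. It was low in young mouse 2 and aged mouse 6 and high in the other libraries of both ages, which overlapped (log2 fold change of aged over young, log2FC, 0.00, standard error, SE, 1.15, adjusted p = 0.999). All 15 tested choroid plexus markers together summed to 703, 74.1 and 616 in the young and 334, 974 and 57.7 CPM in the aged, a sum made up mostly of Ttr (307 FPKM), and their median log2FC of -0.17 became 0.12, -0.56 and 0.16 without young mice 1 to 3 and 0.07, -1.03 and 0.32 without aged mice 4 to 6. Markers of neighbouring cortex and hippocampus summed to 338, 286 and 335 in the young and 235, 467 and 250 CPM in the aged, highest in aged mouse 5. Their median of 0.07 became -0.05 without young mouse 2, -0.64 without aged mouse 5 and 0.37 without aged mouse 4. The 11 tested markers of striatum and septum summed to 251, 275 and 398 in the young and 289, 306 and 285 CPM in the aged, highest in young mouse 3, with a median of -0.01 that became 0.15 without young mouse 3 and -0.19 without young mouse 1. The 11 markers of thalamus summed to 1509, 1594 and 1537 in the young and 1502, 1839 and 1583 CPM in the aged, with a median of 0.09 that became -0.09 without aged mouse 5 and 0.17 without aged mouse 4. In these 4 lists edgeR called 0 DEGs and DESeq2 called 0, with an unadjusted p under 0.05 in 0, 0, 1 and 1 members, while without aged mouse 5 edgeR called 1 of cortex and hippocampus, Slc17a7. The part of such tissue in the changes described here was not tested. Of 10 listed pituitary genes 4 had enough counts to be tested, with sums of 9, 7.15 and 8.65 in the young and 12.7, 12.7 and 10.6 CPM in the aged. Their median of -0.25 became 0.26 without young mouse 1 and -0.62 without aged mouse 4, and their DEG, Pomc, is also made by hypothalamic neurons. Pomc made up most of these sums, at 6.17, 6.42 and 6.99 in the young and 10.4, 11.9 and 9.8 CPM in the aged.

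Few genes differed between the ages past the thresholds, and many differed by a little. A gene was called a differentially expressed gene, or DEG, when its fold change was over 1.5 and edgeR's quasi-likelihood test gave it an adjusted p under 0.05, by the method of Benjamini and Hochberg. By that rule 108 of 14955 tested genes (0.722%) changed, 54 upwards (0.361%) and 54 downwards (0.361%). At any fold change, 178 genes (1.19%) were higher and 201 (1.34%) lower in aged mice at an adjusted p under 0.05. Every aged library lay above every young library in 14.0% of the tested genes and below every young library in 13.5%. These shares are the ones to set beside the counts of members without overlap in each list. All 108 DEGs showed such a gap between the ages. At an unadjusted p under 0.05 there were 3463 of the 14955 genes (23.2%), the share to set beside such counts in each list. The median log2FC of all tested genes was -0.002 and the median of its absolute value 0.123. DESeq2 called 150 genes, 64 upwards and 86 downwards, and 98 of the 108 were among them, while the other 10 had no adjusted p in DESeq2. Single libraries weighed on the count, which was 33, 32 and 237 without young mice 1 to 3 and 65, 113 and 40 without aged mice 4 to 6. With each library left out in turn, 26 of the 108 were called every time, 12 upregulated and 14 downregulated. The split between directions was 74 up and 47 down with the length trend of each library removed. It was 35 and 73 by limma on log2(FPKM + 0.1) and 21 and 48 on log2(FPKM + 1), which differ from edgeR in test, scale and filter.

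The genes with the largest changes at a mean of 5 CPM or more fall in several of the groups described below, or in none. Upwards they were Abca8a, C4b, Xdh, Stra6, Entpd4b, Mpeg1, Pcdhb9, Plcxd3, Pcdhga2 and Fbln5, and downwards Dynlt1b, Wdfy1, Nnt, Pdlim2, Gamt, Opalin, Ddah2, Gabra2, Dbp and Mog. Their log2FC values ran from 0.83 to 1.68 and from -1.81 to -0.92. Among them, Entpd4b, Wdfy1, Nnt and Gabra2 are in the list of substrain genes, and Abca8a, Gamt, Opalin and Mog in the myelin list. Of those that no group holds, Dynlt1b, a dynein light chain, stood at 13.4, 32.4 and 33.8 in the young and 7.19, 7.88 and 7.62 CPM in the aged. It fell in aged mice (log2FC -1.81, SE 0.30, adjusted p = 0.0266), with young mouse 1 closer to the aged level than young mice 2 and 3, and near-identical paralogues make the assignment of its reads uncertain. Pdlim2, a cytoskeletal scaffold with PDZ and LIM domains, stood at 33.8, 28.6 and 24.4 in the young and 14.6, 11.7 and 12.2 CPM in the aged. All aged values lay below all young ones (log2FC -1.17, SE 0.13, adjusted p = 0.00488). Plcxd3, a phospholipase C-like protein, stood at 4.75, 4.42 and 6.2 in the young and 11.4, 7.38 and 10 CPM in the aged, higher in each aged mouse (log2FC 0.91, SE 0.19, adjusted p = 0.046). Dynlt1b was no DEG without young mouse 2 or aged mouse 4 or 6 (highest adjusted p 0.134). Plcxd3 was no DEG without young mouse 1 or 2 or aged mouse 4 or 6 (highest adjusted p 0.185).

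**Figure D1:**
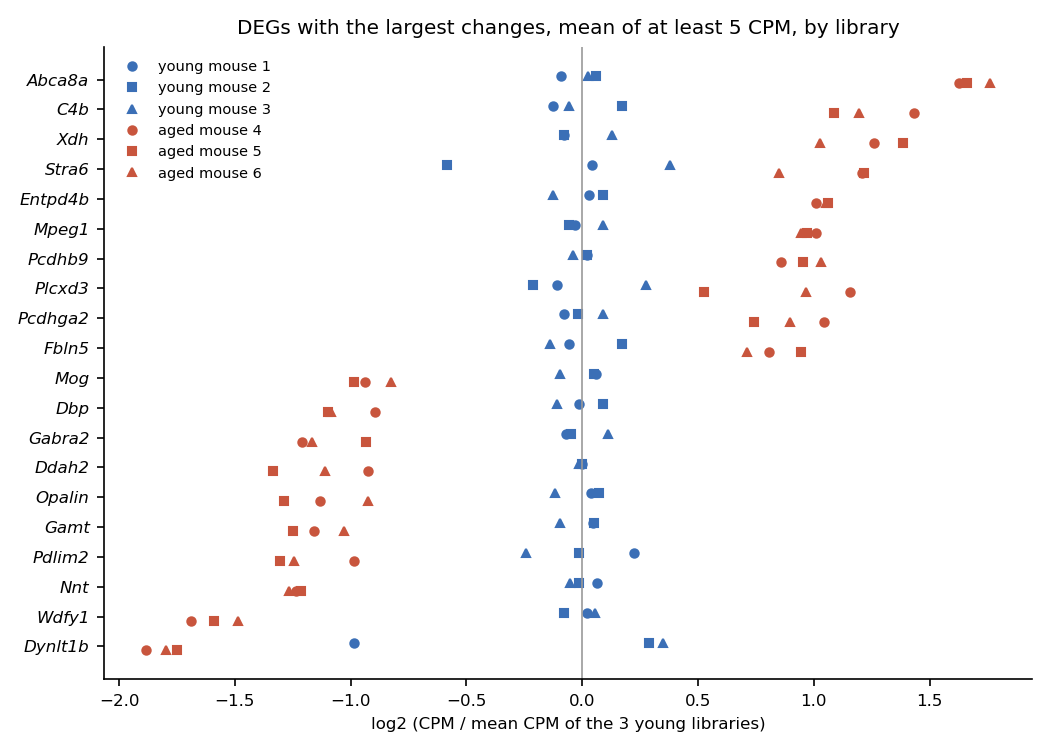
CPM of the 20 DEGs with the largest fold changes at a mean of 5 CPM or more, as log2 of the ratio to the mean of the 3 young libraries, with 1 point per library, circles for young mouse 1 and aged mouse 4, squares for young mouse 2 and aged mouse 5, triangles for young mouse 3 and aged mouse 6. The aged points of Abca8a lie farthest to the right and those of Dynlt1b farthest to the left, with log2 fold changes of 1.68 and -1.81, and in no gene do the ages overlap.

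Small shifts ran along transcript length, and they ordered the libraries in part by age. Among the shortest class of tested genes, 1 of 4 equal classes, with transcripts of 328 to 1892 bases, 27.2% had a log2FC above 0, the median was -0.12, and 6 DEGs rose while 28 fell. In the longest class, of 4376 to 89793 bases, 69.9% were above 0, the median was 0.07, and 22 rose while 2 fell. Over all tested genes 49.6% were above 0. The shortest class's median log2 deviation from the mean of all libraries was 0.13, 0.09 and -0.03 in young mice 1 to 3 and -0.06, -0.02 and -0.11 in aged mice 4 to 6. Young mouse 3 thus lay with the aged libraries on this measure, and the count of DEGs was highest without it. The integrity of the RNA is not stated, and the part of this trend in the changes of short and long genes was not tested.

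**Figure D2:**
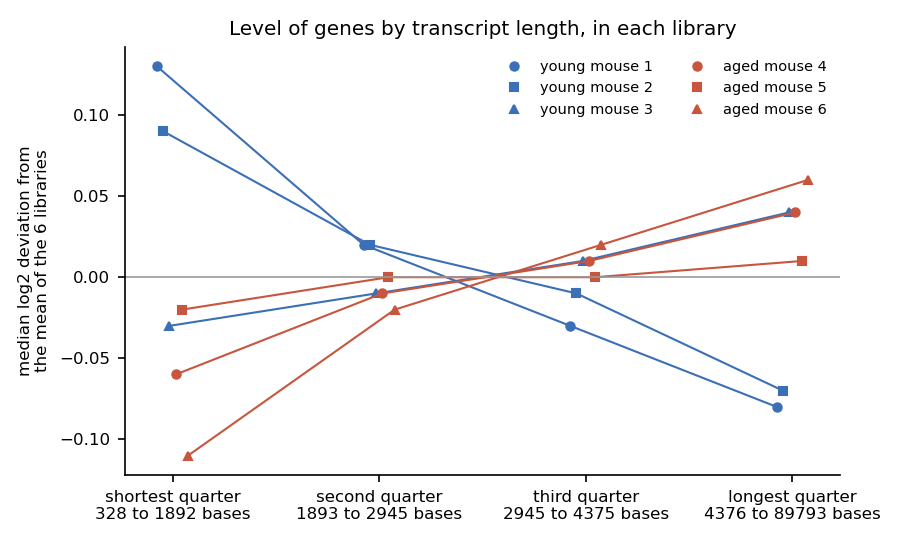
Median log2 deviation of each library's level from the mean of the 6 libraries, on the y axis, over 4 equal classes of the tested genes by transcript length in bases, on the x axis, with 1 line and marker shape per library. In the shortest class young mice 1 and 2 lie at 0.13 and 0.09 and all other libraries between -0.11 and -0.02, and in the longest class the order turns, with -0.08 and -0.07 for young mice 1 and 2.

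Several families of subunits of large complexes had negative medians that lay closer to 0, or turned, with the length trend removed. Of 81 tested genes of cytosolic ribosomal proteins, 71 had a log2FC below 0 with a median of -0.17, which became 0.03 once the length trend of each library was removed. Their summed level was 18120, 16985 and 15153 in the young and 14860, 16010 and 13684 CPM in the aged, lowest in aged mouse 6 and, among the young, in mouse 3. Complex I subunits of the respiratory chain were below 0 in 33 of 37, with a median of -0.19 that became 0.04 without the length trend. For the mitochondrial ribosome 71 of 77 were below 0, with medians of -0.17 before and -0.05 after that step. The same values were 24 of 25, -0.26 and -0.03 for complexes III and IV, 17 of 18, -0.24 and -0.08 for ATP synthase, and 33 of 38, -0.19 and -0.07 for the proteasome. By edgeR these 6 families held 0 DEGs and by DESeq2 0, 0, 0, 0, 0 and 1 in the order named, and at an unadjusted p under 0.05, against 23.2% of all tested genes, they held 32, 19, 34, 15, 13 and 22. Without young mouse 3 they held 2, 1, 3, 1, 1 and 1, and without aged mouse 5 complexes III and IV and ATP synthase held 1 each. With the length trend removed the proteasome held 1.

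Most microglial genes had a log2FC above 0, and most of the microglial DEGs were in the activated list. In the list of activated microglia, which joins lysosomal, lipid and surface genes, 6 of 33 tested members rose and 1 fell, against 0.361% of all tested genes in each direction, 25 had a log2FC above 0 and 8 below, and 12 had every aged library above and 4 below every young one. The median was 0.16, or 0.08 without aged mouse 4 and 0.27 with the length trend removed, and the sums overlapped at 3618, 3556 and 3156 in the young and 3752, 3656 and 3524 CPM in the aged. Ctss, the lysosomal protease cathepsin S, stood at 45.8, 46.3 and 48.8 in the young and 79.9, 77.3 and 80.4 CPM in the aged. The 3 aged values were nearly equal and all above the young (log2FC 0.75, SE 0.05, adjusted p = 0.000343). Mpeg1, a pore-forming protein of macrophages, stood at 18, 17.7 and 19.6 in the young and 37, 36.1 and 35.4 CPM in the aged, again with a wide gap (log2FC 0.97, SE 0.07, adjusted p = 0.000343). Lag3, an inhibitory receptor of the immune system, stood at 2.49, 2.34 and 2.57 in the young and 7.23, 7.3 and 7.23 CPM in the aged and rose most among the members called with every library left out (log2FC 1.55, SE 0.13, adjusted p = 0.000663). Cd180, a relative of the Toll-like receptors, Adgre1, the macrophage antigen F4/80, and Clec7a, a receptor for fungal glucans, rose by 1.37, 0.75 and 1.92 on the log2 scale, with adjusted p-values of 0.0495, 0.0435 and 0.0489. Clec7a was rare, at 0.115, 0.423 and 0.316 in the young and 1.33, 0.927 and 1.01 CPM in the aged. Itgad, an integrin of macrophages whose gene overlaps Cox6a2, fell instead (log2FC -1.49, adjusted p = 0.0485). DESeq2, which called 5 of the list, gave Clec7a and Itgad no adjusted p. Clec7a, Itgad and Cd180 were no DEGs by limma, nor was Adgre1 by limma on log2(FPKM + 1). With each mouse left out in order the list held 3, 3, 8, 3, 4 and 3 DEGs. Cd180, Adgre1 and Clec7a were no DEGs without young mouse 1 or 2 or aged mouse 4, 5 or 6 (highest adjusted p 0.179, 0.152 and 0.15). Itgad was no DEG without young mouse 1 or 2 or aged mouse 4 or 6 (highest adjusted p 0.195).

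Among 27 tested genes of resting microglia, 22 had a log2FC above 0, 15 had every aged library above every young one, and the median was 0.25 against 0.00 for all tested genes. Their summed level was 774, 820 and 802 in the young and 907, 913 and 914 CPM in the aged, so that the lowest aged library exceeded the highest young one. Ptprc, which encodes the leukocyte antigen CD45, stood at 2.3, 2.46 and 2.65 in the young and 4.04, 3.86 and 4 CPM in the aged and was the DEG of the list (log2FC 0.68, SE 0.15, adjusted p = 0.0495). Another 4 members passed the adjusted p at a smaller fold, among them Laptm5, a lysosomal membrane protein (log2FC 0.38, adjusted p = 0.0226), and Selplg, an adhesion ligand (log2FC 0.36, adjusted p = 0.0479). In bulk tissue, a change in the number of cells of a type and a change in the RNA made per cell cannot be told apart, here as in every list of cell markers. Markers of perivascular macrophages had a log2FC below 0 in 7 of 7 tested, with a gap between the ages in 1, a median of -0.49 (-0.32 without aged mouse 6), and sums that overlapped at 45.8, 47.5 and 41.5 in the young and 43.5, 37.1 and 28.7 CPM in the aged. Their Lyve1, a hyaluronan receptor, had an adjusted p of 0.142 and 0 of 7 tested members were DEGs by edgeR and 0 by DESeq2, and 3 had an unadjusted p under 0.05, while without young mouse 3 or aged mouse 4 edgeR called 1. Ptprc was no DEG without young mouse 1 or 2 or aged mouse 4, 5 or 6 (highest adjusted p 0.185).

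Complement, whose C1q, C4 and C3 proteins tag cells and synapses for uptake by microglia, held 1 strong change. C4b, a core protein of the classical pathway, stood at 40, 49.2 and 42 in the young and 118, 92.9 and 100 CPM in the aged. All aged values lay far above the young, with aged mouse 4 the highest (log2FC 1.25, SE 0.10, adjusted p = 0.000788). C1qa, a chain that binds targets, passed the adjusted p at a fold under 1.5 (log2FC 0.30, adjusted p = 0.0479), as did C1qc (log2FC 0.28, adjusted p = 0.0493). The C1 complex as a whole summed to 130, 127 and 119 CPM in young mice 1 to 3 and 160, 153 and 145 CPM in aged mice 4 to 6, and all 7 tested complement receptors had a log2FC above 0, with a median of 0.36. The 8 tested regulators had a median of -0.14. Over all 31 tested members the median was 0.14, or 0.07 without young mouse 2, and without young mouse 3 it was 0.22 with 3 DEGs. Of 26 tested genes of B-cell and Fc receptor signalling, 23 were above 0 with a median of 0.21. Their DEG was Fcgr2b, the inhibitory Fc receptor, at 1.61, 2.04 and 1.66 in the young and 4.15, 3.05 and 3.62 CPM in the aged, with both groups well apart (log2FC 1.03, SE 0.19, adjusted p = 0.0371). Fcgr2b was no DEG without young mouse 1 or 2 or aged mouse 4 or 6 (highest adjusted p 0.146).

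Interferon-response genes were high in 1 aged mouse. Interferons act through surface receptors that switch on antiviral genes. The 62 tested members summed to 422, 412 and 405 in the young and 702, 397 and 446 CPM in the aged, so that aged mouse 4 stood far above all others while aged mice 5 and 6 lay within or near the young range. Of these members 53 had a log2FC above 0 and the median was 0.34, but without aged mouse 4 the median was -0.03. The 3 members that rose past the thresholds lay above the young range in each aged mouse. Without aged mouse 4 none of them was a DEG. Irf8, a transcription factor of myeloid cells, stood at 3.56, 4.07 and 3.28 in the young and 5.97, 5.76 and 5.64 CPM in the aged, alike in the 3 aged mice and above the young (log2FC 0.67, SE 0.14, adjusted p = 0.0446). Zc3hav1, an antiviral RNA-binding protein, stood at 9.66, 9.57 and 11.4 in the young and 19.3, 13.7 and 18.4 CPM in the aged (log2FC 0.75, SE 0.14, adjusted p = 0.037), with no overlap. Cd274, the checkpoint ligand PD-L1, whose gene overlaps Plgrkt, stood at 3.22, 2.42 and 2.77 in the young and 6.74, 4.13 and 5.52 CPM in the aged (log2FC 0.96, SE 0.21, adjusted p = 0.0481), highest in aged mouse 4. The list held 0, 0, 4, 0, 3 and 0 DEGs with each mouse left out in order. Irf8 was no DEG without young mouse 1 or 2 or aged mouse 4, 5 or 6 (highest adjusted p 0.153). Zc3hav1 and Cd274 were no DEGs without young mouse 1 or 2 or aged mouse 4 or 6 (highest adjusted p 0.177 and 0.195).

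Antigen presentation followed the same mouse in part. Each of 8 tested MHC class II genes had a log2FC of 0 or more, but their sum was 19.2, 22.9 and 19 in the young and 36.3, 22.4 and 17 CPM in the aged, and the median of 0.32 became -0.12 without aged mouse 4. Cd74, the invariant chain and most abundant member, stood at 6.25, 7.65 and 5.25 in the young and 14.6, 6.88 and 4.16 CPM in the aged, with aged mouse 6 below every young mouse (log2FC 0.42, adjusted p = 0.544). In this list 0 of 8 tested members were DEGs by edgeR and 0 by DESeq2, and 1 had an unadjusted p under 0.05. Of 26 tested genes of MHC class I and peptide loading, 18 were above 0, with a median of 0.18, and B2m, the light chain shared by all class I molecules, stood at 87.1, 85 and 78.4 in the young and 140, 101 and 109 CPM in the aged, above the young range in each aged mouse and highest in aged mouse 4 (log2FC 0.48, adjusted p = 0.0572). In this list 0 of 26 tested members were DEGs by edgeR and 1 by DESeq2, and 13 had an unadjusted p under 0.05. EdgeR called 1 without aged mouse 5 and 2 with the length trend removed. Schlafens and guanylate-binding proteins, antiviral families induced by interferon, had a median of 0.32 over 12 tested genes, which became -0.05 without aged mouse 4, and 0 of 12 tested members were DEGs by edgeR and 0 by DESeq2, and 2 had an unadjusted p under 0.05. Without young mouse 3 or aged mouse 5, or with the length trend removed, edgeR called 1 of them. Cytosolic DNA sensing, with 29 tested genes and a median of 0.00, held Aim2, an inflammasome sensor of DNA whose gene overlaps Cadm3, as its DEG at 1.69, 1.81 and 1.54 in the young and 3.22, 2.9 and 3.15 CPM in the aged, low in all libraries but apart between the ages (log2FC 0.88, SE 0.17, adjusted p = 0.0414). Aim2 was no DEG without young mouse 1 or 2 or aged mouse 4, 5 or 6 (highest adjusted p 0.154).

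Promoters of the interferon list are shown because its summed level was high in 1 mouse, though Irf8 was alike in the 3 aged mice. RefSeq promoter windows of build GRCm38.p6, 250 bases before and 50 after the annotated start, were found for 46 of the 62 tested members, in 55 windows. Searched on both strands were the interferon-stimulated response element, ISRE, written as TTTC, any 2 bases and TTTC, and the gamma-activated site, GAS, as TTCNNNGAA with N for any base, and the pair can overlap. ISRE letters were in 28 of the 55 windows and in 2.95% of the 15205 windows of tested genes, and GAS letters in 14 and in 6.73%. Irf8 (chr8:120736108-120736407, plus strand) held 2 GAS matches, which begin 171 and 153 bases before the start, at -171 and -153. A second window of Irf8 (chr8:120738389-120738688, plus strand), not printed, held neither motif. Isg15, an antiviral protein like ubiquitin that was chosen after its values were seen, stood at 1.8, 2.27 and 1.82 in the young and 4.34, 1.39 and 1.59 CPM in the aged, high in aged mouse 4 alone (log2FC 0.32, adjusted p = 0.684), and its window (chr4:156200769-156201068, minus strand) held 3 overlapping ISRE matches at -78, -72 and -66. Capitals mark the matches, a match is a description, not a site or a cause, and the RefSeq windows of Zc3hav1 and Cd274 held neither motif.
Irf8: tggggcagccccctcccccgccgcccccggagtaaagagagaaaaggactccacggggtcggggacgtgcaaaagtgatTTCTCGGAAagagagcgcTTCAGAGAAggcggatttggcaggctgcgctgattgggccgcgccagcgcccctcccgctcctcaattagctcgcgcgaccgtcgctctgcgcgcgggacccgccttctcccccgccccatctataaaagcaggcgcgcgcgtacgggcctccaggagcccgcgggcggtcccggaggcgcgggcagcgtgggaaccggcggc
Isg15: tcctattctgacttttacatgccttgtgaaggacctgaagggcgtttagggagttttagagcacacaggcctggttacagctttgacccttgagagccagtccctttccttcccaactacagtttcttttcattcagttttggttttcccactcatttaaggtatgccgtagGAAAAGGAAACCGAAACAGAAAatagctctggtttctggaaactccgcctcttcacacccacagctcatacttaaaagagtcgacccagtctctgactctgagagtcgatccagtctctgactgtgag

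Markers of blood immune cells were scarce. Of 17 listed markers of T, B and NK cells 3 could be tested, with summed levels of 2.03, 3.23 and 2.84 in the young and 3.37, 2.16 and 2.57 CPM in the aged, and their median of 0.15 became -0.33 without aged mouse 4. There 0 of 3 tested members were DEGs by edgeR and 0 by DESeq2, and 0 had an unadjusted p under 0.05. Of 14 markers of monocytes and neutrophils 3 could be tested, summing to 5.79, 7.07 and 6.76 in the young and 8.63, 9.46 and 9.68 CPM in the aged, with a median of 0.29 that became -0.06 without young mouse 2. Csf3r, the receptor for granulocyte colony-stimulating factor, which microglia also express, made up most of that sum and lay above the young range in each aged mouse (log2FC 0.63, adjusted p = 0.0528). There 0 of 3 tested members were DEGs by edgeR and 1 by DESeq2, and 1 had an unadjusted p under 0.05, and edgeR called 1 without young mouse 3 or with the length trend removed. Red blood cell genes had a log2FC below 0 in all 6 tested members, with a median of -0.58, or -0.24 without young mouse 2, and sums of 433, 624 and 326 in the young and 313, 313 and 232 CPM in the aged. Hbb-bs, a beta globin and the most abundant at 235 FPKM, stood at 181, 244 and 111 in the young and 103, 105 and 57.4 CPM in the aged, with young mouse 3 close to the aged (log2FC -1.01, adjusted p = 0.0872). In this list 0 of 6 tested members were DEGs by edgeR and 1 by DESeq2, and 5 had an unadjusted p under 0.05, and edgeR called 2 without young mouse 3. The part of blood left in the tissue in other changes was not tested.

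Coagulation, cytokine and senescence lists held few DEGs. Bdkrb2, the bradykinin B2 receptor, rose in the coagulation list at 0.383, 0.653 and 0.514 in the young and 2.33, 2.09 and 2.22 CPM in the aged, well apart between the ages (log2FC 2.09, SE 0.25, adjusted p = 0.00776), though DESeq2 gave it no adjusted p. The 21 tested members had a median of -0.10, or 0.03 without aged mouse 6, and 2 DEGs without young mouse 3 or aged mouse 6. Among 47 tested cytokines, chemokines and their receptors the median was 0.03, and Il33, an alarmin of glia, stood at 82.5, 83.5 and 75.5 in the young and 120, 108 and 122 CPM in the aged, above the young range in each aged mouse but under the fold of 1.5 (log2FC 0.54, adjusted p = 0.00813). In this list 0 of 47 tested members were DEGs by edgeR and 1 by DESeq2, and 15 had an unadjusted p under 0.05 (23.2% of all tested genes). EdgeR called 1 without young mouse 3 or aged mouse 5, or with the length trend removed. Of 23 senescence genes 14 could be tested, with a median of 0.04, and 0 of 14 tested members were DEGs by edgeR and 1 by DESeq2, and 2 had an unadjusted p under 0.05. Cdkn1a, the cell cycle inhibitor p21, stood at 30.4, 42.3 and 35.4 in the young and 48.4, 53.1 and 35.6 CPM in the aged, with overlapping ages (log2FC 0.34, adjusted p = 0.222).

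The myelin list held 9 of the 54 DEGs that fell. Of 50 tested genes of myelin and mature oligodendrocytes 9 fell and 1 rose, 21 had every aged library below every young one, and the median was -0.17, or -0.11 without young mouse 3. The 21 structural myelin proteins held 6 of the decreases. Mal, a proteolipid that sorts membrane to myelin, stood at 562, 550 and 535 in the young and 340, 341 and 349 CPM in the aged. Both groups were tight and far apart (log2FC -0.68, SE 0.05, adjusted p = 0.000343). Cldn11, which seals the layers of the sheath, stood at 379, 420 and 406 in the young and 246, 242 and 269 CPM in the aged (log2FC -0.67, SE 0.06, adjusted p = 0.00184), and Mog, a glycoprotein of the outermost layer, at 149, 148 and 134 in the young and 74.7, 72.3 and 80.6 CPM in the aged (log2FC -0.92, SE 0.07, adjusted p = 0.000343). In both genes the highest aged value was well under the lowest young one. Opalin, a membrane protein of mature oligodendrocytes, stood at 23.6, 24.2 and 21.2 in the young and 10.5, 9.42 and 12.1 CPM in the aged and fell, with a wide gap (log2FC -1.11, SE 0.11, adjusted p = 0.00203). Tspan2, a tetraspanin (log2FC -0.62, adjusted p = 0.00378), Pllp, or plasmolipin (log2FC -0.60, adjusted p = 0.0071), Gsn, the actin-severing gelsolin (log2FC -0.62, adjusted p = 0.00221), and Btbd16 (log2FC -1.0, adjusted p = 0.0489) fell too, as did Gamt, which makes creatine. Mbp, the most abundant at 2345 FPKM, stood at 5019, 4987 and 4652 in the young and 3908, 4359 and 4593 CPM in the aged, below the young range in each aged mouse by a small step (log2FC -0.19, adjusted p = 0.118).

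The list was not uniform. Its summed level was 17834, 17819 and 18113 in the young and 15159, 15743 and 16320 CPM in the aged, each aged library below each young one, but the 15 genes of myelin lipid synthesis and metabolism summed to 3052, 2838 and 3066 CPM in young mice 1 to 3 and 3098, 3290 and 3005 CPM in aged mice 4 to 6, with overlap. Abca8a, a lipid transporter of oligodendrocytes, rose at 10.9, 12.1 and 11.8 in the young and 35.8, 36.7 and 39.3 CPM in the aged, the strongest increase of the genes with at least 5 CPM (log2FC 1.68, SE 0.08, adjusted p = 2.62e-05). Its lowest aged value was well above its highest young one. The list held 8, 8, 10, 9, 7 and 9 DEGs with each mouse left out in order, and 9 with the length trend removed, which left out Pllp by its fold (log2FC -0.54, adjusted p = 0.00409). The fold of Tspan2 was under 1.5 without aged mouse 5 (log2FC -0.57), as was that of Gsn without aged mouse 6 (-0.57), and Pllp was no DEG without young mouse 1 or 2 or aged mouse 5 (-0.55). Btbd16 was no DEG without young mouse 1 or 2 or aged mouse 4, 5 or 6 (highest adjusted p 0.18).

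Genes of oligodendrocyte precursors and differentiating cells summed to 2096, 2116 and 2108 in the young and 2062, 2074 and 2138 CPM in the aged, with overlap, and their median was -0.09, or -0.03 without young mouse 3 or aged mouse 4. Of the 27 tested, 9 had every aged library below every young one, 6 of them among 12 genes of committed cells, and 14 had an unadjusted p under 0.05. Gpr17, a receptor of cells committed to differentiate, passed the adjusted p at a fold under 1.5, at 98.2, 90.5 and 104 in the young and 63.6, 71.1 and 67.6 CPM in the aged (log2FC -0.53, adjusted p = 0.00943), with all aged values below the young. Rlbp1, a retinaldehyde-binding protein, rose at 5.48, 4.69 and 5.37 in the young and 6.93, 10 and 8.83 CPM in the aged (log2FC 0.73, SE 0.16, adjusted p = 0.0479), with aged mouse 4 nearest the young. Without aged mouse 4 the list held 2 DEGs. Rlbp1 was no DEG without young mouse 1 or 2 or aged mouse 5 or 6 (highest adjusted p 0.194).

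Cholesterol synthesis, which supplies the sterol of myelin and membranes, held 0 DEGs, though all its enzymes had a negative log2FC. All 20 tested enzymes of the mevalonate and sterol steps lay below 0, from -0.46 to -0.08 with a median of -0.25, and 13 had every aged library below every young one. Their sum was 1401, 1434 and 1455 CPM in young mice 1 to 3 and 1205, 1139 and 1308 CPM in aged mice 4 to 6. Idi1, which isomerises the isoprene unit, stood at 69.7, 69.9 and 70.6 in the young and 50.9, 49.1 and 52.3 CPM in the aged (log2FC -0.46, adjusted p = 0.00424), and Msmo1, a sterol oxidase (log2FC -0.39, adjusted p = 0.0277), and Acat2, a thiolase (log2FC -0.37, adjusted p = 0.0293), were lower too. Each passed the adjusted p with all aged values below the young, yet at folds under 1.5. Srebf1, a transcription factor of lipid synthesis, pointed the other way (log2FC 0.44, adjusted p = 0.0214). The 8 regulators and uptake genes, 4 above and 4 below 0, had a median of -0.01. Over the whole list the median was -0.19, and 0 of 28 tested members were DEGs by edgeR and 0 by DESeq2, and 16 had an unadjusted p under 0.05.

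Lipid droplet and fatty acid genes gave 2 increases among 30 tested, with a median of 0.03. Plin4, a coat protein of lipid droplets whose gene overlaps Hdgfl2, stood at 57.8, 86.6 and 72.2 in the young and 121, 124 and 126 CPM in the aged, with young mouse 1 the lowest and the aged values alike (log2FC 0.77, SE 0.12, adjusted p = 0.0222). Scd3, a fatty acid desaturase whose gene overlaps Pkd2l1, stood at 6.05, 6.69 and 6.24 in the young and 9.89, 12.1 and 11.2 CPM in the aged (log2FC 0.80, SE 0.11, adjusted p = 0.0147), with no overlap. The list held 1, 1, 3, 2, 2 and 0 DEGs with each mouse left out in order. Plin4 was no DEG without aged mouse 6 (highest adjusted p 0.0847). Scd3 was no DEG without young mouse 1 or 2 or aged mouse 6 (highest adjusted p 0.0795).

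**Figure D3:**
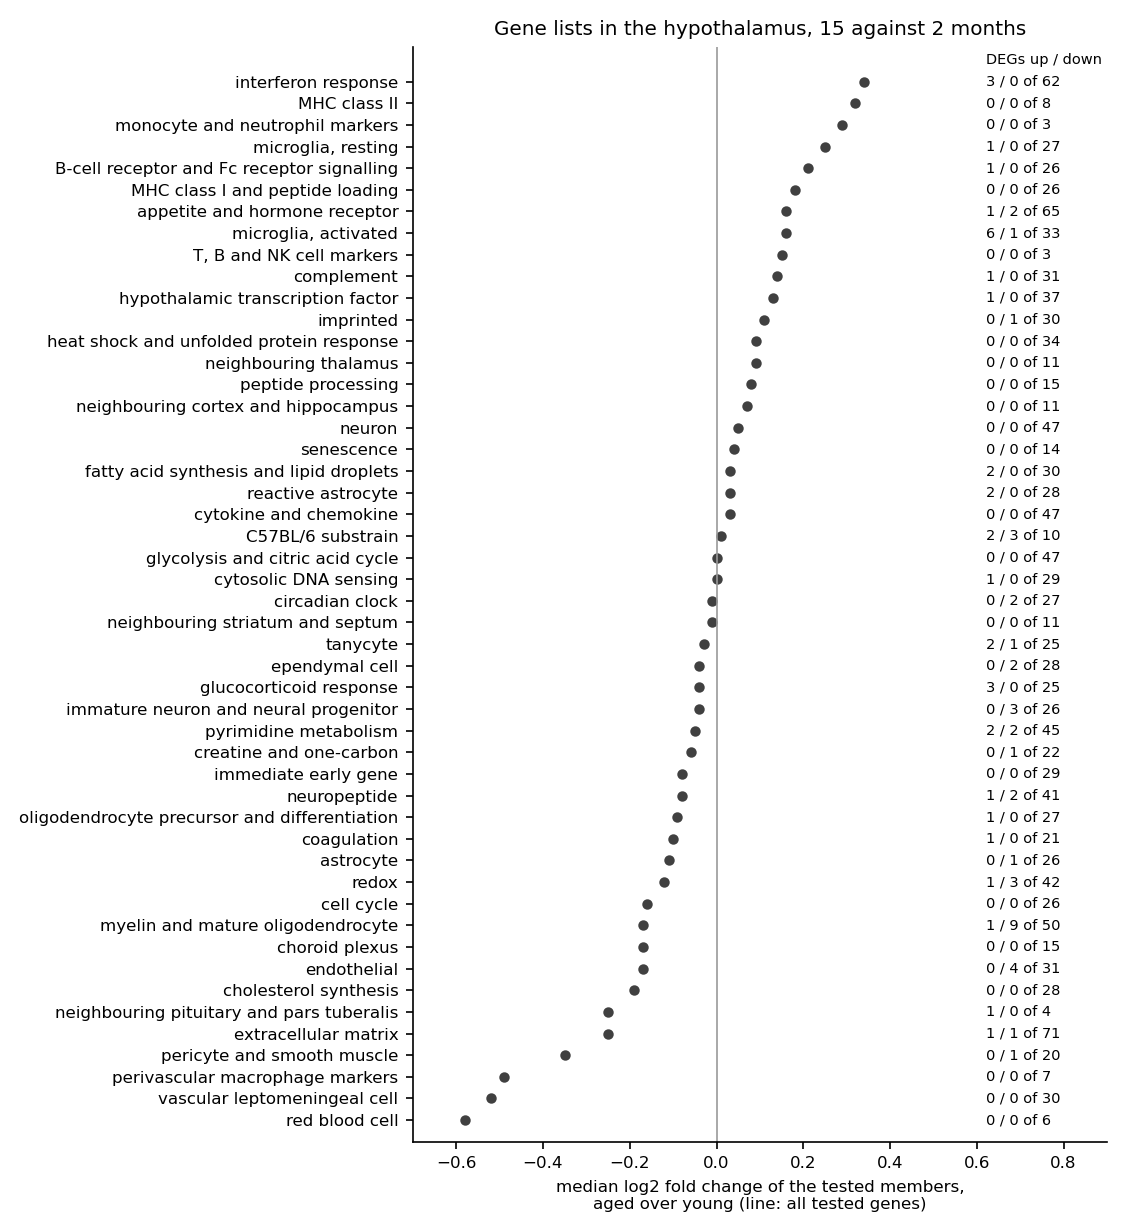
Median log2 fold change, aged over young, of the tested members of each gene list, on the x axis, with the counts of DEGs up and down at the right and a line at the median of all tested genes, -0.002. Symbol families are not shown. The median of 0.34 for interferon-response genes becomes -0.03 without aged mouse 4, and those of neuropeptide (-0.08) and glucocorticoid (-0.04) genes turn to 0.15 and 0.05 with the length trend removed.

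Astrocytes feed neurons and take up glutamate. Of 26 tested markers 19 had a log2FC below 0, with a median of -0.11, or -0.05 without young mouse 1 and -0.06 with the length trend removed, and their sums overlapped at 13991, 13880 and 13099 in the young and 13925, 13267 and 13442 CPM in the aged. Fabp7, a fatty acid-binding protein of astrocytes, tanycytes and progenitors, fell at 20.5, 21.4 and 18.9 in the young and 10.7, 11.8 and 9.91 CPM in the aged, tightly in both groups (log2FC -0.91, SE 0.10, adjusted p = 0.00327). Without young mouse 3 the list held 2 DEGs. In the list of reactive astrocytes the median of 0.03 ran from -0.05 without aged mouse 4 to 0.17 without aged mouse 6. There Serpina3n, a protease inhibitor, rose at 32, 34.2 and 31.3 in the young and 45.4, 57.1 and 56.4 CPM in the aged (log2FC 0.71, SE 0.09, adjusted p = 0.00982). Fbln5, an elastic fibre protein, rose at 14.6, 17.1 and 13.8 in the young and 26.6, 29.3 and 24.9 CPM in the aged (log2FC 0.83, SE 0.10, adjusted p = 0.00798). The ages were apart in both genes. Gfap, the filament protein of astrocytes and most abundant member here, stood at 237, 241 and 196 in the young and 234, 219 and 207 CPM in the aged, with overlapping ages (log2FC -0.03, adjusted p = 0.872). The list held 1, 1, 3, 2, 2 and 2 DEGs with each mouse left out in order. Serpina3n was no DEG without young mouse 1 or 2 (highest adjusted p 0.0569).

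Among tanycyte genes 2 of 25 rose and 1, the Fabp7 named above, fell, with a median of -0.03, or -0.17 without aged mouse 4. Of the 25, 10 had a log2FC above 0 and 15 below. Their sums were 842, 790 and 798 in the young and 782, 774 and 702 CPM in the aged, each aged library below each young one. Crb1, a polarity protein of epithelia, stood at 1.03, 0.692 and 0.632 in the young and 3.56, 3.4 and 3.77 CPM in the aged, clearly apart (log2FC 2.18, SE 0.23, adjusted p = 0.0031). Stra6, the receptor for the carrier of retinol, whose gene overlaps Ccdc33, stood at 6.28, 4.07 and 7.94 in the young and 14.1, 14.2 and 11 CPM in the aged (log2FC 1.10, SE 0.21, adjusted p = 0.0405), with young mouse 2 lowest. Neither riser is particular to this list. Stra6 averaged 3.4 FPKM here and 6.41 FPKM in the hippocampal libraries, and Crb1 is also in the substrain list given below. Of 28 tested genes of ependymal cells, which carry the cilia of the ventricle, Efcab7 fell at 2.34, 2.57 and 2.77 in the young and 1.22, 1.35 and 1.4 CPM in the aged (log2FC -0.95, SE 0.19, adjusted p = 0.044) and Ccdc13 at 6.59, 6.42 and 6.32 in the young and 3.78, 4.64 and 3.58 CPM in the aged (log2FC -0.69, SE 0.14, adjusted p = 0.044), while the median was -0.04 and the sums were 289, 264 and 273 in the young and 234, 279 and 225 CPM in the aged, with overlap. The ependymal list held 0, 0, 2, 0, 2 and 0 DEGs with each mouse left out in order. Its median was 0.05, -0.23 and 0.03 without aged mice 4 to 6. Stra6 and Efcab7 were no DEGs without young mouse 1 or 2 or aged mouse 4, 5 or 6 (highest adjusted p 0.144 and 0.178). Ccdc13 was no DEG without young mouse 1 or 2 or aged mouse 4 or 6 (highest adjusted p 0.178).

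Vascular lists had negative medians, with sums that overlapped between the ages. Of 31 tested endothelial genes 4 fell and 24 had a log2FC below 0, with a median of -0.17 and sums of 1247, 1232 and 1157 in the young and 1171, 1081 and 1095 CPM in the aged. Itm2a, a membrane protein of brain endothelium, stood at 73.6, 64.9 and 50.4 in the young and 42.8, 33.4 and 33.6 CPM in the aged, with young mouse 3 closest to the aged (log2FC -0.78, SE 0.14, adjusted p = 0.0343). Apcdd1, an inhibitor of Wnt signals, stood at 34.6, 34.4 and 27.9 in the young and 21.3, 21.2 and 21.2 CPM in the aged (log2FC -0.60, SE 0.09, adjusted p = 0.0214), nearly equal in the 3 aged mice. Gkn3, a marker of arterial endothelium, fell by 1.32 on the log2 scale (adjusted p = 0.0285). Aplnr, the apelin receptor, was rare at 1.34, 0.922 and 0.672 in the young and 0.222, 0.155 and 0.0778 CPM in the aged and fell most (log2FC -2.65, SE 0.46, adjusted p = 0.0293), though DESeq2 gave it no adjusted p. The list held 0, 0, 4, 1, 2 and 0 DEGs with each mouse left out in order. Itm2a was no DEG without young mouse 1 or 2 or aged mouse 5 or 6 (highest adjusted p 0.16). Apcdd1 and Gkn3 were no DEGs without young mouse 1 or 2 or aged mouse 4 or 6 (highest adjusted p 0.13 and 0.147). Aplnr was no DEG without young mouse 1 or 2 or aged mouse 4, 5 or 6 (highest adjusted p 0.134).

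For pericytes and smooth muscle 18 of 20 tested genes were below 0, with a median of -0.35 that became -0.61 without aged mouse 4 and -0.21 without aged mouse 6, and sums of 544, 546 and 447 in the young and 512, 392 and 379 CPM in the aged. Smyd1, a methyltransferase of muscle, fell at 11.2, 9.11 and 9.8 in the young and 6.85, 5.33 and 5.95 CPM in the aged (log2FC -0.73, SE 0.13, adjusted p = 0.0344), all aged values below the young. Pdgfrb, the growth factor receptor that defines pericytes, passed the adjusted p at a fold under 1.5 (log2FC -0.35, adjusted p = 0.0263). Vascular and leptomeningeal cells, the fibroblasts of vessels and meninges, were below 0 in 28 of 30, with a median of -0.52 that became -1.15 without aged mouse 4 and -0.22 without aged mouse 6, yet 0 of 30 tested members were DEGs by edgeR and 3 by DESeq2, and 4 had an unadjusted p under 0.05 (23.2% of all tested genes). Their sums were 1794, 2096 and 1077 in the young and 1829, 1014 and 754 CPM in the aged, mostly Ptgds, a prostaglandin synthase (1135 FPKM), so that aged mouse 4 lay among the young and young mouse 3 near the aged. Without young mouse 3 and without aged mouse 4 the pericyte list held 3 and 3 DEGs and the leptomeningeal list 1 and 2. How much meninges each dissection carried was not tested. Smyd1 was no DEG without young mouse 1 or 2 or aged mouse 5 or 6 (highest adjusted p 0.139).

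Extracellular matrix genes were below 0 in 57 of 71 tested members, with a median of -0.25 (-0.38 without aged mouse 4) against 0.00 for all tested genes, and 23 had every aged library below every young one. Collagens had a median of -0.22 over 23 genes, and Col1a1, the fibrillar collagen of meninges and vessels, stood at 40.1, 37.3 and 26 in the young and 22.1, 12.5 and 8.09 CPM in the aged, lower in each aged mouse with a wide spread (log2FC -1.27, adjusted p = 0.0607). Proteoglycans and matricellular proteins had a median of -0.49. Eln, elastin, fell at 24.5, 25.1 and 24.4 in the young and 18.7, 13.5 and 11 CPM in the aged, level in the young and spread in the aged (log2FC -0.77, SE 0.16, adjusted p = 0.0476). Fbln5, which organises elastic fibres, is the 1 DEG of the list that rose, at the values given with the astrocytes. The list held 1, 1, 7, 9, 1 and 1 DEGs with each mouse left out in order and 8 by DESeq2. Its sums overlapped at 5855, 5854 and 5410 in the young and 5912, 5061 and 5332 CPM in the aged, highest in aged mouse 4. The part of leptomeningeal tissue and blood in its negative median was not tested. Eln was no DEG without young mouse 1 or 2 or aged mouse 5 or 6 (highest adjusted p 0.179).

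**Figure D4:**
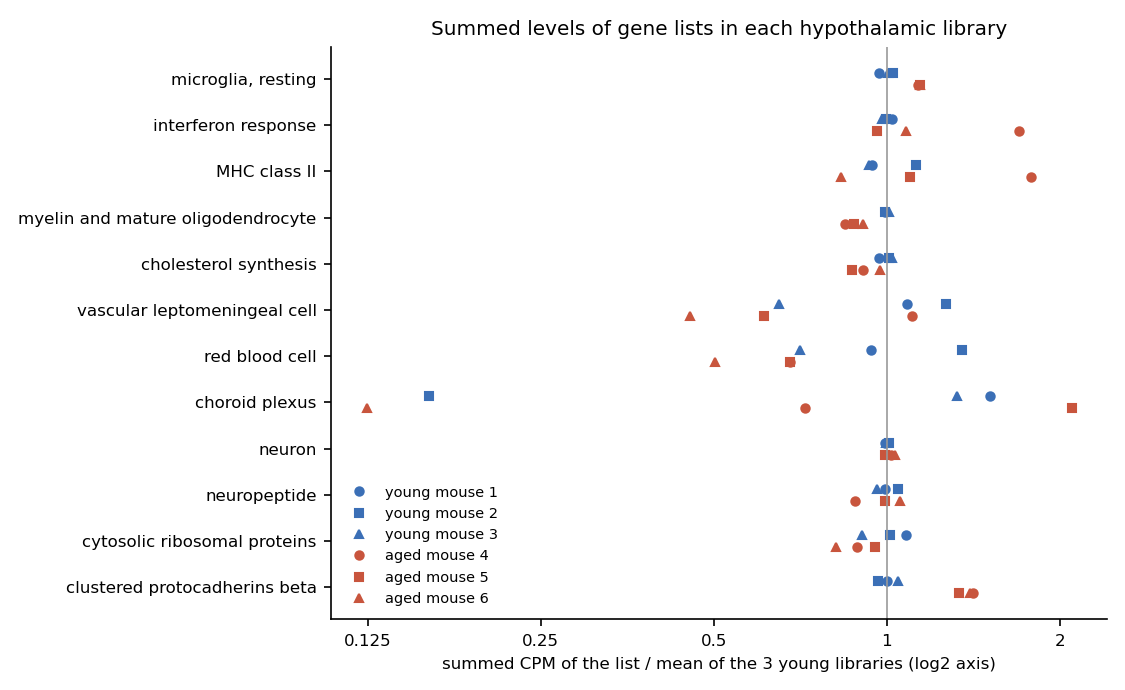
Summed CPM of 12 gene lists in each library, divided by the mean of the 3 young libraries, on a log2 x axis, with 1 point per library and blue for young and red for aged. Interferon-response genes stand at 702 CPM in aged mouse 4 against 397 to 446 in the other libraries, choroid plexus genes vary within each age, and the sums of clustered protocadherins beta lie between 151 and 160 in the aged and between 109 and 118 in the young.

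The list of neuronal genes held no DEG. The 47 tested genes of neurons and their transmitters summed to 21365, 21732 and 21430 in the young and 21900, 21340 and 22266 CPM in the aged, with 35 above 0 and a median of 0.05 (0.14 without aged mouse 5), and 0 of 47 tested members were DEGs by edgeR and 0 by DESeq2, and 12 had an unadjusted p under 0.05. Snap25, the vesicle fusion protein and most abundant of them at 891 FPKM, was alike at both ages (log2FC -0.01, adjusted p = 0.904). Genes that process and release peptides had a median of 0.08 over 15, and 0 of 15 tested members were DEGs by edgeR and 0 by DESeq2, and 4 had an unadjusted p under 0.05. Without aged mouse 5 edgeR called 1 neuronal gene.

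Among neuropeptides 3 changed, and a pair of them belong to opposed neurons of the arcuate nucleus. Pomc, the precursor of the satiety peptide alpha-MSH, stood at 6.17, 6.42 and 6.99 in the young and 10.4, 11.9 and 9.8 CPM in the aged. All aged values lay above the young (log2FC 0.71, SE 0.11, adjusted p = 0.0242). Agrp, which blocks the receptor of that peptide and raises food intake, stood at 1.34, 1.69 and 1.42 in the young and 0.741, 0.618 and 0.661 CPM in the aged, all aged values below the young (log2FC -1.13, SE 0.24, adjusted p = 0.0492). Npy, made in the same neurons as Agrp and in many others, was alike at both ages (log2FC -0.09, adjusted p = 0.692). Ucn, or urocortin, a relative of corticotropin-releasing hormone, fell at 4.25, 5.15 and 3.83 in the young and 1.93, 1.82 and 2.53 CPM in the aged (log2FC -1.08, SE 0.19, adjusted p = 0.0338), again with no overlap. Cartpt, another peptide linked to satiety, lay below the young range but was no DEG (log2FC -0.28, adjusted p = 0.107). Agrp and Ucn are short, and neither was a DEG with the length trend removed (log2FC -0.91 and -0.83, adjusted p = 0.0775 and 0.0562), while DESeq2 gave Agrp no adjusted p. Of all 41 tested neuropeptides 24 were below 0, with a median of -0.08 that became 0.15 with the length trend removed, 0.01 without young mouse 2 and 0.06 without aged mouse 4. The list held 0, 0, 4, 0, 1 and 0 DEGs with each mouse left out in order. Pomc was no DEG without young mouse 1 or 2 or aged mouse 4 or 6 (highest adjusted p 0.134). Agrp and Ucn were no DEGs without young mouse 1 or 2 or aged mouse 4, 5 or 6 (highest adjusted p 0.196 and 0.161).

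The abundant peptides of the other nuclei did not pass the test. Among those of the paraventricular, supraoptic and preoptic nuclei, Avp, vasopressin, stood at 100, 159 and 124 in the young and 76.5, 108 and 151 FPKM in the aged, with a wide overlap (log2FC -0.15, adjusted p = 0.743), and Oxt (log2FC -0.10, adjusted p = 0.72), Trh (log2FC 0.09, adjusted p = 0.632), Crh (log2FC 0.23, adjusted p = 0.634) and Gnrh1 (log2FC -0.65, adjusted p = 0.417) did not pass either. Per mouse, vasopressin and oxytocin were both lowest in aged mouse 4. In the lateral hypothalamus Hcrt was level (log2FC 0.00, adjusted p = 0.999), and Pmch (log2FC -0.13, adjusted p = 0.67) was also lowest in aged mouse 4. None of the 4 peptides of the suprachiasmatic nucleus, the seat of the daily clock, passed, namely Vip (log2FC -0.44, adjusted p = 0.272), Grp (-0.19), Nms (-0.31) and Prok2 (-0.09, but 0.20 without aged mouse 4 and -0.89 without aged mouse 5). Sst, the inhibitor of growth hormone and most abundant peptide at 187 FPKM, stood at 93, 112 and 93.9 in the young and 93.8, 105 and 96.9 CPM in the aged, alike at both ages (log2FC -0.01, adjusted p = 0.954), and Ghrh, its opponent, had a log2FC of 0.24.

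None of the remaining peptides was a DEG. Nmb passed the fold threshold but not the adjusted p, and edgeR called it in 1 fit with a library left out (adjusted p = 0.0489). A positive log2FC was found for Adcyap1 (0.23), Bdnf (0.25), Cbln1 (0.13), Cbln2 (0.17), Cbln4 (0.03), Crhbp (0.41), Gal (0.17), Npff (0.01), Pdyn (0.25), Qrfp (0.53), Tac2 (0.02) and Ucn3 (0.54), and a negative one for Cck (-0.18), Nmb (-0.83), Npb (-0.51), Nppc (-0.23), Npvf (-0.08), Nts (-0.10), Nucb2 (-0.32), Nxph4 (-0.05), Penk (-0.10), Rln3 (-0.04) and Tac1 (-0.13). The ages did not overlap in Bdnf, Cbln2, Ucn3, Nucb2 and Tac1, and the smallest adjusted p was 0.131, for Nucb2.

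**Figure D5:**
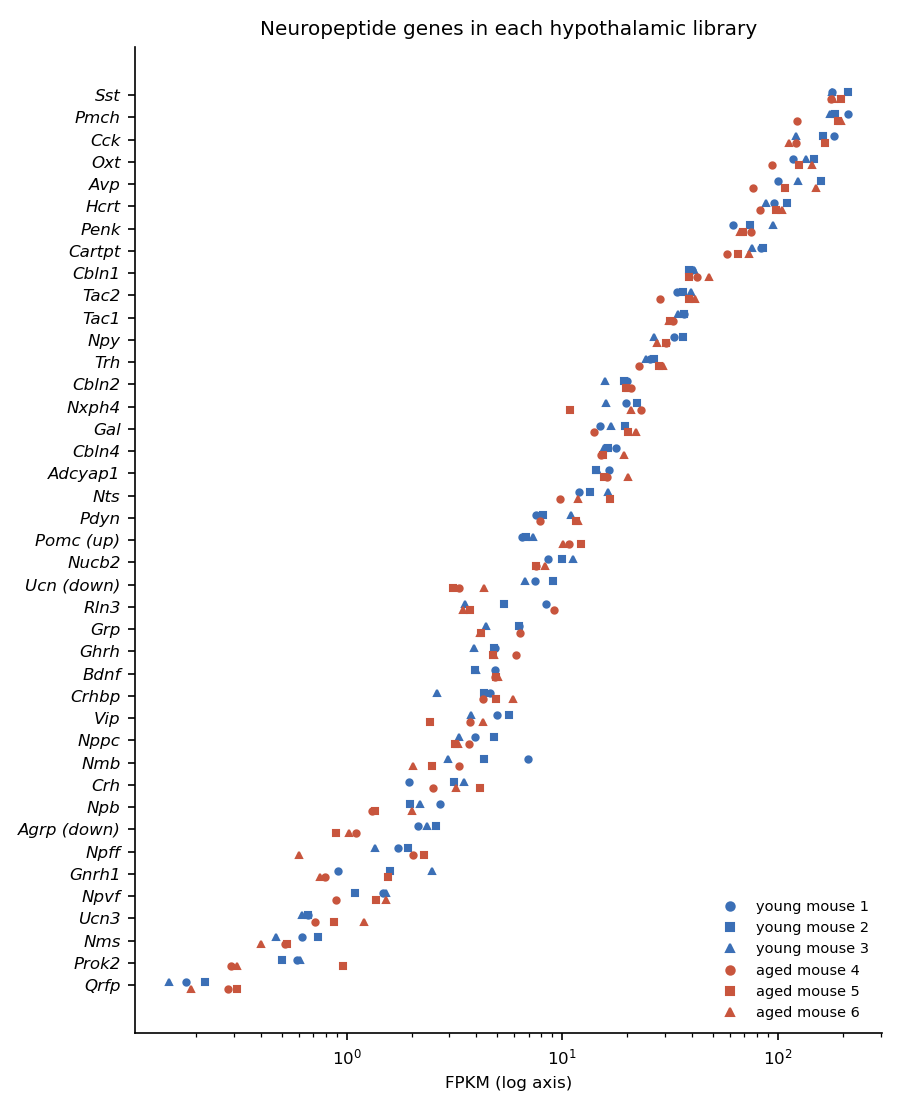
FPKM of each tested neuropeptide gene in each library, on a log x axis, with blue for young and red for aged mice, and with the DEGs marked up or down. Sst and Pmch lead at mean levels of 187 and 180 FPKM, and the aged points of Pomc lie above and those of Agrp and Ucn below their young points.

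Of 65 tested receptors and signal genes of hormones and peptides 52 had a log2FC above 0, with a median of 0.16, 18 had every aged library above every young one, and 1, the Bdkrb2 named above, rose, while Aplnr and Srd5a1 fell. Srd5a1, the enzyme that turns testosterone and progesterone into 5-alpha-reduced steroids, stood at 18.7, 16.4 and 15.3 in the young and 10.4, 9.31 and 11.5 CPM in the aged, with a clear gap (log2FC -0.69, SE 0.11, adjusted p = 0.0243). Stat3, which carries the leptin signal, passed the adjusted p at a smaller fold (log2FC 0.33, adjusted p = 0.0345). The list held 1, 1, 6, 1, 2 and 1 DEGs with each mouse left out in order. Of 37 tested transcription factors of hypothalamic neurons Pou3f1, a POU factor also known as Oct6, rose at 17.6, 21.1 and 17.9 in the young and 29.5, 30.2 and 28.9 CPM in the aged, narrow in the aged (log2FC 0.65, SE 0.08, adjusted p = 0.00982), and the median was 0.13, from 0.05 without young mouse 1 to 0.22 without young mouse 3 or aged mouse 4. Without aged mouse 5 the list held 2. Srd5a1 was no DEG without young mouse 1 or 2 or aged mouse 4 or 6 (highest adjusted p 0.132). Pou3f1 was no DEG without young mouse 1 (highest adjusted p 0.0541).

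Receptor and channel families held few calls. Of 16 tested GABA-A receptor subunits Gabra2 fell, at 50.9, 51.7 and 57.7 in the young and 23.1, 28 and 23.8 CPM in the aged, by far the largest shift of the family (log2FC -1.10, SE 0.09, adjusted p = 0.000629). The family's median was 0.10, and without aged mouse 5 the family held 2 DEGs. Of 16 tested serotonin and dopamine receptors 15 were above 0, with a median of 0.20, and Htr1b, an inhibitory receptor on axon endings, rose at 5.21, 4.8 and 5.06 in the young and 8.37, 6.72 and 7.66 CPM in the aged (log2FC 0.59, SE 0.13, adjusted p = 0.0479). Channels and other transmitter receptors had medians of 0.10 (ionotropic glutamate, 20 genes), 0.14 (metabotropic glutamate, 7), 0.07 (potassium channels, 80), 0.18 (sodium channels, 12), 0.07 (calcium channels, 23), 0.10 (acetylcholine receptors, 16) and 0.35 (glycine receptors, 5). With the length trend removed the medians were 0.03 for ionotropic glutamate and 0.08 for sodium channels. Those of acetylcholine receptors ran from 0.01 without aged mouse 6 to 0.23 without young mouse 3, that of calcium channels was 0.01 without young mouse 1, and that of glycine receptors 0.20 without young mouse 2. In these 7 families edgeR called 0 DEGs, DESeq2 called 1 potassium channel and 1 glycine receptor gene, and the counts at an unadjusted p under 0.05 were 4, 2, 19, 4, 5, 2 and 2. EdgeR called 2 potassium channel genes, 1 ionotropic glutamate and 1 glycine receptor gene without young mouse 3, and 1 potassium channel and 1 glycine receptor gene without aged mouse 5. Htr1b was no DEG without young mouse 1 or 2 or aged mouse 4 or 6 (highest adjusted p 0.191).

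Clustered protocadherins, surface proteins by which neurons tell their own branches from others, held 5 DEGs in their beta cluster. Of 21 tested beta genes 5 rose, all 21 had a log2FC above 0, 15 had every aged library above every young one, and the median was 0.45, or 0.40 with the length trend removed. Their summed level was 113, 109 and 118 in the young and 160, 151 and 158 CPM in the aged, with every aged library above every young one. Pcdhb9, the most abundant at 4.77 FPKM, stood at 9.89, 9.88 and 9.48 in the young and 17.7, 18.9 and 19.9 CPM in the aged (log2FC 0.95, SE 0.09, adjusted p = 0.00138). Pcdhb2, Pcdhb3, Pcdhb6 and Pcdhb14 rose by 1.44, 0.70, 0.98 and 0.69 on the log2 scale (adjusted p = 0.0341, 0.0448, 0.046 and 0.0265). In the gamma cluster 2 of 22 rose, with a median of 0.36. Pcdhga2 stood at 16.3, 17 and 18.3 in the young and 35.5, 28.8 and 32 CPM in the aged, with a clear gap between the ages (log2FC 0.90, SE 0.09, adjusted p = 0.00289), and Pcdhga1 rose by 0.66 (adjusted p = 0.0448). All these genes lie side by side on chromosome 18, the gamma genes share their last exons, and the beta genes are close paralogues, so the assignment of reads among them is uncertain.

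In the alpha cluster next to them 0 of 14 tested members were DEGs by edgeR and 2 by DESeq2, and 2 had an unadjusted p under 0.05, and the median was 0.26. For protocadherins outside the clusters 0 of 11 tested members were DEGs by edgeR and 0 by DESeq2, and 1 had an unadjusted p under 0.05, and the median was 0.09 (0.02 with the length trend removed). With each mouse left out in order the beta cluster held 1, 1, 6, 1, 5 and 1 DEGs and the gamma cluster 1, 1, 5, 2, 2 and 1. Without young mouse 3, or with the length trend removed, the alpha cluster held 1. Pcdhb2, Pcdhb3, Pcdhb6 and Pcdhb14 were no DEGs without young mouse 1 or 2 or aged mouse 4 or 6 (highest adjusted p 0.126, 0.182, 0.184 and 0.134). Pcdhga1 was no DEG without young mouse 1 or 2 or aged mouse 4, 5 or 6 (highest adjusted p 0.18).

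The circadian clock held 2 DEGs, Dbp and Ciart, and none among the genes of its core loop. The core is a loop in which CLOCK and BMAL1, encoded by Arntl, drive the period and cryptochrome genes, which then repress them, and output factors such as DBP pass the rhythm on. Dbp, whose gene overlaps Sphk2, stood at 122, 131 and 114 in the young and 66.1, 57.4 and 58 CPM in the aged. The aged mice lay far below the young, with no overlap (log2FC -1.02, SE 0.08, adjusted p = 0.000397). Ciart, a repressor of the loop, fell at 21, 23.1 and 22.6 in the young and 14.7, 13.8 and 14.9 CPM in the aged (log2FC -0.62, SE 0.08, adjusted p = 0.00894), also with no overlap. In the core, Per1 (log2FC -0.26, adjusted p = 0.055), Per3 (log2FC -0.39, adjusted p = 0.0517) and Nr1d2 (log2FC -0.23, adjusted p = 0.0634) lay below the young range in each aged mouse, and Arntl (log2FC 0.31, adjusted p = 0.083), Clock (log2FC 0.16, adjusted p = 0.12), Csnk1d (0.14) and Csnk1e (0.04) above it. The ages overlapped, at the log2FC given, in Per2 (-0.08), Cry1 (0.02), Cry2 (-0.01), Nr1d1 (-0.19), Npas2 (0.12), Arntl2 (-0.22), Rora (-0.04) and Rorb (-0.10). Among outputs Tsc22d3, which glucocorticoids also induce, passed the adjusted p at a smaller fold (log2FC -0.38, adjusted p = 0.0434). Over 27 tested members the median was -0.01. Ciart was no DEG without young mouse 2 (highest adjusted p 0.064), nor with the length trend removed (log2FC -0.51, adjusted p = 0.023). Since the time of tissue collection is not stated, age and the time of day at collection cannot be told apart for these genes.

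Promoters of the circadian list were searched because Dbp and Ciart are both driven by the CLOCK complex. RefSeq windows of GRCm38.p6 matched 21 of the 27 tested genes, in 32 windows. Searched on both strands were the E-box bound by that complex, CACGTG, the D-box bound by DBP and TEF, TTATGNAA, and the RORE bound by REV-ERB and ROR factors, NNAGGTCA. E-box letters were in 6 of the 32 windows and 9.35% of the 15205 windows of tested genes, D-box letters in 2 and 2.08%, and RORE letters in 5 and 12.5%. Ciart (chr3:95882179-95882478, minus strand) held 3 E-boxes beginning at -116, -58 and -44 from the start, written in capitals, and Dbp (chr7:45704997-45705296, plus strand) held none of the 3 motifs in its window, which says only that these letters are not in it.
Ciart: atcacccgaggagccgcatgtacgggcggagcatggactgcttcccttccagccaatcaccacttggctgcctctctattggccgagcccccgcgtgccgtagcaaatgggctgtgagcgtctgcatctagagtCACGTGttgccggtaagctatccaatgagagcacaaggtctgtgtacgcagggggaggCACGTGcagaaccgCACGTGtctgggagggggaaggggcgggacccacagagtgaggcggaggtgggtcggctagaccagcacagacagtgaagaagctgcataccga
Dbp: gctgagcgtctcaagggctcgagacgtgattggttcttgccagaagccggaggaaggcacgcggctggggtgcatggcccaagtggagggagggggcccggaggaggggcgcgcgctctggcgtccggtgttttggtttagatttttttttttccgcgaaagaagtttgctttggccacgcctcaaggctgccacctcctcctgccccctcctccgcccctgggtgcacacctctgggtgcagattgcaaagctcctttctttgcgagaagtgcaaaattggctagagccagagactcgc

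Genes that answer to glucocorticoids included 3 increases among 25 tested, though the median was -0.04, or 0.05 with the length trend removed. Of the 25, 12 had a log2FC above 0 and 13 below. Every aged library lay above every young one in 6 and below in 7, against 14.0% and 13.5% of all tested genes. At any fold change 4 passed the adjusted p upwards and 2 downwards. Zbtb16, a zinc finger repressor, stood at 25.7, 27.3 and 26.8 in the young and 50.1, 50.1 and 38.2 CPM in the aged, with aged mouse 6 the lowest of the aged but above all young (log2FC 0.80, SE 0.10, adjusted p = 0.00982). Xdh, the xanthine oxidoreductase that makes urate, stood at 16.3, 16.3 and 18.8 in the young and 41.2, 44.9 and 35.1 CPM in the aged, far above the young in every aged mouse (log2FC 1.24, SE 0.10, adjusted p = 0.000788). Plin4 is the third, at the values given with lipid droplets. Zbtb16 was no DEG without young mouse 1 or 2 (highest adjusted p 0.0687).

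Immediate early genes, which mark recent activity, had a median of -0.08 over 29 (-0.18 without aged mouse 5), and 0 of 29 tested members were DEGs by edgeR and 1 by DESeq2, and 6 had an unadjusted p under 0.05. Fos stood at 11.8, 13.4 and 13.5 in the young and 5.78, 9.62 and 9.29 CPM in the aged, below the young range in each aged mouse (log2FC -0.65, adjusted p = 0.0815), and Dusp1 passed the adjusted p downwards at a smaller fold (log2FC -0.47, adjusted p = 0.0396). Chaperones of heat shock and the unfolded protein response had a median of 0.09 over 34, and 0 of 34 tested members were DEGs by edgeR and 1 by DESeq2, and 16 had an unadjusted p under 0.05. Cryab, a small heat shock protein of glia, passed the adjusted p upwards at a fold under 1.5 (log2FC 0.31, adjusted p = 0.037). For cell cycle genes 0 of 26 tested members were DEGs by edgeR and 0 by DESeq2, and 3 had an unadjusted p under 0.05, and the median was -0.16. EdgeR called 1 immediate early gene without aged mouse 5 and 1 chaperone gene without young mouse 3.

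Genes of immature neurons and progenitors gave 3 decreases among 26 tested, with a median of -0.04, or 0.01 without young mouse 3. Ndn, necdin, an imprinted gene expressed from the paternal copy and strong in the hypothalamus, stood at 564, 560 and 512 in the young and 359, 316 and 356 CPM in the aged, with a clear gap (log2FC -0.67, SE 0.07, adjusted p = 0.00255), but was no DEG with the length trend removed, by its fold alone (log2FC -0.58, adjusted p = 0.00209). Nrep, a neuronal protein of regeneration, stood at 63.6, 63.6 and 58.9 in the young and 40.7, 37.6 and 35.2 CPM in the aged (log2FC -0.71, SE 0.07, adjusted p = 0.00192), and Tead2, a factor of the Hippo pathway, fell by 0.79 on the log2 scale (adjusted p = 0.0479). Among 30 tested imprinted genes Ndn was the DEG, 21 were above 0 with a median of 0.11, and without young mouse 3 the list held 3 DEGs. Tead2 was no DEG without young mouse 1 or 2 or aged mouse 4, 5 or 6 (highest adjusted p 0.178).

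Of 10 tested genes known to differ between substrains of C57BL/6, 2 rose and 3 fell, against 0.722% of all tested genes. The list was chosen with earlier results of these data known, so this share is a description and cannot serve as a test. Nnt, a mitochondrial proton pump that makes NADPH and carries a deletion in C57BL/6J mice, stood at 50.5, 47.8 and 46.6 in the young and 20.5, 20.8 and 20.1 CPM in the aged. Each group was narrow, with a wide gap between them (log2FC -1.24, SE 0.06, adjusted p = 3.64e-05). Gabra2, at the values given above, carries a deletion in an intron in C57BL/6J that lowers its transcript. Wdfy1, an endosomal adaptor whose gene overlaps Mrpl44, stood at 77.3, 72 and 79.1 in the young and 23.6, 25.3 and 27.2 CPM in the aged, the smallest adjusted p of the decreases (log2FC -1.58, SE 0.07, adjusted p = 2.62e-05). Entpd4b, a nucleotidase of the Golgi with the close paralogue Entpd4, stood at 95.2, 99.5 and 85.5 in the young and 188, 195 and 194 CPM in the aged and rose (log2FC 1.04, SE 0.06, adjusted p = 0.000179), while Entpd4 itself was no DEG (log2FC 0.70, adjusted p = 0.457). With each library left out in turn the log2FC of Entpd4 ran from -0.15 to 1.10. Crb1, whose rd8 mutation is carried by C57BL/6N, rose at the values given with tanycytes. Cyfip2 (log2FC 0.18), Ide (-0.05) and Nlrp1b (0.06) were no DEGs. All 5 DEGs were called with each library left out, and the list's median of 0.01 was -0.13 without aged mouse 6 and -0.03 without young mouse 1. The labels give C57BL/6J for every mouse, and whether the suppliers' mice differed in genotype was not tested.

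Redox and pyrimidine genes held 4 DEGs each. Of 42 tested redox genes Xdh rose and Nnt, Ddah2 and Oxld1 fell, with a median of -0.12 (-0.05 with the length trend removed), and 16 members had every aged library below every young one. Ddah2, which breaks down an inhibitor of nitric oxide synthesis, stood at 11.6, 11.6 and 11.5 in the young and 6.11, 4.6 and 5.37 CPM in the aged, with the young values nearly equal and the aged lower (log2FC -1.11, SE 0.12, adjusted p = 0.00424). In pyrimidine metabolism, with 45 tested genes and a median of -0.05, Entpd4b and Dpyd rose and Nme3 and Nt5c fell. Dpyd, the first enzyme of uracil breakdown, stood at 6.44, 6.46 and 6.36 in the young and 9.97, 9.27 and 11.5 CPM in the aged, nearly constant in the young (log2FC 0.67, SE 0.11, adjusted p = 0.0277). Nme3, a nucleoside diphosphate kinase whose gene overlaps Mapk8ip3 (log2FC -0.80, adjusted p = 0.0293), Nt5c, a nucleotidase whose gene overlaps Armc7 (log2FC -0.64, adjusted p = 0.0351), and Oxld1 (log2FC -0.71, adjusted p = 0.0446) have short transcripts, and none of the 3 was a DEG with the length trend removed (log2FC -0.58, -0.43 and -0.50, adjusted p = 0.0171, 0.0177 and 0.0899), Nme3 and Nt5c by their fold alone. The redox list held 3, 3, 7, 4, 3 and 3 DEGs and the pyrimidine list 1, 1, 5, 1, 4 and 1 with each mouse left out in order. Oxld1 was no DEG without young mouse 1 or 2 or aged mouse 4, 5 or 6 (highest adjusted p 0.176). Dpyd, Nme3 and Nt5c were no DEGs without young mouse 1 or 2 or aged mouse 4 or 6 (highest adjusted p 0.134, 0.134 and 0.161).

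Creatine synthesis showed opposite signs at its steps. Gamt, which methylates guanidinoacetate to creatine, fell at 22.7, 22.8 and 20.6 in the young and 9.86, 9.27 and 10.8 CPM in the aged, with a clear gap (log2FC -1.15, SE 0.09, adjusted p = 0.000629). Gatm, the enzyme before it, was above the young range and past the adjusted p at a smaller fold (log2FC 0.36, adjusted p = 0.0222). Cbs, the first step from homocysteine to cysteine, passed it upwards too (log2FC 0.50, adjusted p = 0.0222). Over 22 tested members the median was -0.06. For glycolysis and the citric acid cycle 0 of 47 tested members were DEGs by edgeR and 0 by DESeq2, and 8 had an unadjusted p under 0.05, and the median was 0.00.

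Among other gene families, claudins gave 2 decreases of 11 tested with a median of -0.11 (-0.22 without young mouse 2), Cldn11 and Cldn14 (log2FC -1.05, adjusted p = 0.039), and adhesion G protein-coupled receptors 2 increases of 21, Adgre1 and Adgrg2 (log2FC 0.61, adjusted p = 0.0478, but log2FC 0.57 and adjusted p = 0.0409 with the length trend removed), with a median of -0.04 that became 0.07 without young mouse 3. Histones held Hist1h1c, a linker histone, as their DEG of 25 (log2FC -0.87, adjusted p = 0.0222, median -0.16, or -0.01 with the length trend removed). ABC transporters held Abca8a of 35 (median 0.07), and solute carriers Slc26a6, an anion exchanger, of 273 (log2FC -0.66, adjusted p = 0.0277, median -0.02). Zinc finger proteins named Zfp held Zfp984 of 371 (log2FC -0.82, adjusted p = 0.0446, median 0.02), and the F-box and WD proteins Fbxw15 of 10, which stood under 1 CPM in every library (log2FC 1.75, adjusted p = 0.0485, median of the family -0.01). The other families had medians of -0.15 (connexins, 11 genes), -0.22 (small heat shock proteins, 13, -0.08 without aged mouse 5), 0.00 (cytochromes P450, 24) and -0.19 (glutathione S-transferases, 17, -0.05 with the length trend removed). In these 4 edgeR called 0 DEGs, DESeq2 2, 0, 0 and 0, and an unadjusted p under 0.05 was found for 4, 4, 5 and 5. EdgeR called 1 connexin and 1 cytochrome P450 without aged mouse 4, 1 small heat shock protein, 2 histones, 2 ABC transporters, 3 solute carriers and 2 Zfp genes without young mouse 3, and 2 solute carriers without aged mouse 4 or 5. With the length trend removed it called 1 small heat shock protein, 1 cytochrome P450 and 2 ABC transporters. Cldn14 and Zfp984 were no DEGs without young mouse 1 or 2 or aged mouse 4, 5 or 6 (highest adjusted p 0.178 and 0.16). Adgrg2 and Slc26a6 were no DEGs without young mouse 1 or 2 or aged mouse 4 or 6 (highest adjusted p 0.178 and 0.135). Hist1h1c was no DEG without young mouse 1 or 2 or aged mouse 6 (highest adjusted p 0.13). Fbxw15 was no DEG without young mouse 1, 2 or 3 or aged mouse 4, 5 or 6 (highest adjusted p 0.184). It held only 4 to 6 counts in the young and 15 to 19 in the aged libraries, and DESeq2 called 0 genes of its family.

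Whether these changes are particular to the hypothalamus was asked by testing the interaction of age and tissue over the 12 mRNA libraries. EdgeR called 0 of 15237 tested genes, with a smallest adjusted p of 0.437 and 653 genes at an unadjusted p under 0.05, and DESeq2 called 3. No hypothalamic change described here is thus shown by edgeR to differ from that of the hippocampus.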

How the data were processed

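The authors filtered reads with SOAPnuke, aligned them with HISAT and quantified genes with Bowtie2 and RSEM on mouse build mm10, also called GRCm38, and deposited 1 table per library with estimated counts (the expected counts of RSEM) and FPKM values per gene. Expected counts were rounded, since 12.03% of the listed ones were not whole, and genes not listed were set to 0. They were tested with edgeR 4.0.16 (quasi-likelihood F test, filterByExpr, TMM scaling, adjustment by Benjamini and Hochberg) in R 4.3.3, and CPM are on that scale. FPKM were used as deposited by the authors, for levels and for alternatives with limma 3.58.1. DESeq2 1.42.0, other filters and scalings, each library left out and, chosen after the data were seen, the length trend of each library removed were the alternatives. With 3 mice against 3 the smallest exact permutation p is 0.10.

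Genes were named by a rule: the largest changes, all DEGs of the lists and families, every neuropeptide, core clock and substrain gene, and per list the smallest adjusted p-values and the most abundant member. Members of the last 2 kinds that are no DEGs are given only in part, for length. A few genes that the rule names are not reported here. The members and lists were chosen with earlier results of these data known. Symbols stored as dates, 26 in number, were restored by gene ID. Overlap was checked against RefSeq, and 21 of the 108 DEGs overlap another gene with reads, while the files do not state whether counting used the strand. Small RNA was not analysed here. The common biological coefficient of variation was 0.0919. Tables and figures were made in Python 3.11.15 with pandas 2.3.3 and matplotlib 3.10.9.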

Additional observations from a re-analysis of the deposited data

Results flagged for a closer look

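Mpeg1 had the smallest adjusted p of the interaction between age and tissue by DESeq2, 0.00125, with a log2 difference of 0.66, hypothalamus minus hippocampus. By edgeR the log2 difference was 0.67 with an adjusted p of 0.437, so the call, not the size of the difference, depends on the test.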

How the results depend on the processing

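Of the 108 DEGs none had the opposite sign in any alternative, and 24 were called in all of them. The count was 379 at any fold change, 69 by limma on log2(FPKM + 1), 121 with the length trend removed (chosen after the data were seen) and 102 when fitted over 12 libraries, and ran from 32 without young mouse 2 to 237 without young mouse 3. The cause of these shifts was not tested. The interaction gave 0 genes by edgeR and 3 by DESeq2. Libraries of the 2 tissues share mouse numbers, but the correlation of their deviations within a number was -0.07 at the lowest and 0.12 at the highest, and samples were not treated as paired. With the number as a replicate block the interaction again gave 0 genes (smallest adjusted p 0.46). The expression filter left 14955 of 18018 listed genes to test.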
